A study of Mus musculus with 24 samples.

Results

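The 10 genes described here encode chemoattractant receptors, the surface receptors that hold blood cells in the marrow or draw them out of it. They are Ccr1, Ccr2, Ccr3, Cxcr2, Cxcr4, Fpr1, Fpr2, Ltb4r1, Ptafr and S1pr4, taken by name from the 24982 gene symbols in the data, and all 10 had enough reads to be tested. The data were counts of messenger RNA in eosinophils sorted by flow cytometry from the bone marrow of wild type C57BL6 mice. The IL-33 groups came from mice given 400 ng of recombinant murine interleukin 33 (IL-33), a cytokine that drives the accumulation of eosinophils, into the peritoneum each day for 7 days, and the steady state groups from mice not given it. Each condition was sorted into 4 stages of maturation, I to IV, with 3 libraries per group and 24 in all, every library from the pooled marrow of 3 mice. Marrow was first depleted magnetically of NK1.1, CD45R, CD90.2 and Ly6G positive cells. The gates then used CD200R3, CD117, Siglec-F, CD29, Pir-A/B, CD55 and F4/80.

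All of these receptors span the membrane repeatedly and couple to inhibitory G proteins, whose freed subunits start the polarity and movement of the cell along a gradient of ligand. CXCR4, bound by CXCL12 from the marrow stroma, is known for retaining haematopoietic cells in the marrow. CCR3, the receptor of the eotaxins, is the chief chemokine receptor of mature eosinophils, CXCR2 draws neutrophils and CCR2 draws monocytes out of the marrow.

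Levels are given as scaled CPM, the count of a gene relative to the summed counts of the 12743 genes tested in its library, with TMM correction for library make-up. Gene reads per library numbered between 8335138 and 14909453. Reads assigned to no gene were 12.5% ± 2.50 of all counted reads in IL-33 libraries and 21.6% ± 3.69 in steady state libraries (SD, n = 12 each). The 4 steady state libraries numbered 3 stood apart from the other 20, with the early stress gene Jun at 3331 to 5018 scaled CPM against 875 to 2142 and Atf3 at 164.6 to 1063 against at most 51.97. The eosinophil surface genes Siglecf, at 150.3 to 805.2 scaled CPM, and Il5ra, at 79.87 to 353.04, were read in every library. The 6 eosinophil markers other than Ccr3, granule protein genes among them, summed to 32740, 31922, 29155 and 19283 scaled CPM from stage I to IV under IL-33 and to 33058, 31522, 16143 and 1481 in steady state. Epx, eosinophil peroxidase, averaged 5801 scaled CPM in stage IV under IL-33 and 21.8 in stage IV in steady state, and Prg2, major basic protein, 10499.6 and 471 in the same order. In sorted bulk cells, fewer cells that carry a receptor and less of its RNA in each cell cannot be told apart.

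Positions are those of GENCODE M21 on GRCm38 (mm10). Ccr1 (ENSMUSG00000025804, chromosome 9, 123962124 to 123968692, minus strand), Ccr3 (ENSMUSG00000035448, 124021972 to 124031689, plus strand) and Ccr2 (ENSMUSG00000049103, 124101950 to 124113557, plus strand) fill 151.4 kb of a chemokine receptor cluster. Fpr1 (ENSMUSG00000045551, chromosome 17, 17876471 to 17883940, minus strand) and Fpr2 (ENSMUSG00000052270, 17887824 to 17893952, plus strand) lie together within 17.5 kb. Cxcr2 (ENSMUSG00000026180, 74153989 to 74161246, plus strand) and Cxcr4 (ENSMUSG00000045382, 128588199 to 128592293, minus strand) are both on chromosome 1, far apart. The rest are Ptafr (ENSMUSG00000056529, chromosome 4, 132564067 to 132582683, plus strand), S1pr4 (ENSMUSG00000044199, chromosome 10, 81497747 to 81500132, minus strand) and Ltb4r1 (ENSMUSG00000046908, chromosome 14, 55765962 to 55768494, plus strand). All are annotated as protein-coding. Fpr2 overlaps Fpr3 on the same strand, so its counts are uncertain, since reads of the shared part may have been set aside as ambiguous.

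The promoters of 5 receptors are shown, chosen after their levels were seen, so that the sequence can be read beside their very different courses over the stages. Each is the 250 bases before the start of the gene in RefSeq (build GRCm38.p6), on the strand of the gene. Capitals mark GATAA, the core bound by GATA factors, and TTNNGNAA, a site of the C/EBP type, each searched on both strands, so that reverse complements are capitalised too. The windows are chr9:124021721-124021970 for Ccr3, chr9:123968693-123968942 for Ccr1, chr1:128592300-128592549 for Cxcr4, chr4:132563817-132564066 for Ptafr and chr14:55765712-55765961 for Ltb4r1.
Ccr3: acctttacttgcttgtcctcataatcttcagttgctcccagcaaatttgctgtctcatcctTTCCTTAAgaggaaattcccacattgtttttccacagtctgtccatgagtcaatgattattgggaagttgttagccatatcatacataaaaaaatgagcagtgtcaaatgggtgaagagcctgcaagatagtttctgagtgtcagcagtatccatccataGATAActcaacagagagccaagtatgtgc
Ccr1: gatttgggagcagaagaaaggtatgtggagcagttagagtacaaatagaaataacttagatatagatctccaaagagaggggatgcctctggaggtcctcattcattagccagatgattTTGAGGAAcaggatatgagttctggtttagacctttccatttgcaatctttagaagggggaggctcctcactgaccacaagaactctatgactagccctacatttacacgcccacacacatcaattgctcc
Cxcr4: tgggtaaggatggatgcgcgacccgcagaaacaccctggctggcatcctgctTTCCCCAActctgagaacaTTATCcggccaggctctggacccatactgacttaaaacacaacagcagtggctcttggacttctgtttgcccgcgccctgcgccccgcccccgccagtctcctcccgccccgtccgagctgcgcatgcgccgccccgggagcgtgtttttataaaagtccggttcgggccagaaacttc
Ptafr: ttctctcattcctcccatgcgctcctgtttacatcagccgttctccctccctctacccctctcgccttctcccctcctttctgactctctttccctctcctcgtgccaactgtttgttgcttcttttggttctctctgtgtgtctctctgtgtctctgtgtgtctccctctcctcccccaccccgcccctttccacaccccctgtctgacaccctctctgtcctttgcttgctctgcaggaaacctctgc
Ltb4r1: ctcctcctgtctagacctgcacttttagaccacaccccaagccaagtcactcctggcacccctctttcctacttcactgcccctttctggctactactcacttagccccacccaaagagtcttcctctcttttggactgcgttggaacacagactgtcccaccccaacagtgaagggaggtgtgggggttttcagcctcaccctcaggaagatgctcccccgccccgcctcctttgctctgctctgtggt

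Ccr3 and Cxcr4 held both motifs, Ccr1 the C/EBP-like one alone, and the Ptafr and Ltb4r1 windows neither. In Ccr3 the GATAA began 29 bases before the start, and in Cxcr4 it began 179 bases before it. GATAA was also found in Ccr2 and Fpr2, so 4 of the 10 windows held it, against 22.6% of 32851 mouse promoters of the same length. TTNNGNAA was in 6 of the 10 (also Ccr2, Fpr1 and Fpr2), against 36.8% of all promoters. GAGGAAGT, the site of PU.1, was in none of the 10 and in 2.44% of all. These are matches of letters, and nothing was measured about binding.

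Ccr3 was the receptor with the widest range. In IL-33 libraries it stood at 6.89, 3.40 and 3.94 scaled CPM in stage I, 9.70, 16.2 and 19.4 in stage II, 106.4, 79.0 and 93.8 in stage III, and 1400.2, 1585 and 1646 in stage IV. In steady state libraries it stood at 0.298, 2.13 and 6.67 in stage I, 7.61, 35.9 and 49.4 in stage II, 562, 1025 and 394 in stage III, and 2243, 2156 and 1572 in stage IV. The conditions overlapped in stages I, II and IV, and in stage III every IL-33 library lay below every steady state library. From stage I to IV, Ccr3 rose 322-fold under IL-33 (log2 8.33, SE 0.79, edgeR adjusted p = 5.01e-08) and 637-fold in steady state (log2 9.31, SE 0.83, edgeR adjusted p = 2.57e-08), and the IL-33 change less the steady state change was -0.98 on the log2 scale (95% interval -2.76 to 0.79, edgeR adjusted p = 0.623).

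Ccr1, a receptor for several inflammatory CC chemokines, followed another course in each condition. In IL-33 libraries it was at 38.8, 27.2 and 26.7 scaled CPM in stage I, 87.7, 104.4 and 105.5 in stage II, 257.8, 217.7 and 241.8 in stage III, and 384.1, 370.9 and 370.9 in stage IV, with no overlap between adjacent stages. In steady state libraries it was at 12.8, 22.8 and 26.4 in stage I, 158.3, 125.4 and 215.8 in stage II, 670.2, 730.0 and 336.9 in stage III, and 255.3, 264.6 and 124.3 in stage IV. The steady state maximum was thus in stage III and the IL-33 maximum in stage IV. The low values in steady state stages III and IV were those of library 3.

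Ltb4r1 encodes BLT1, the high-affinity receptor of leukotriene B4. It was plentiful from the first stage and moved little, its highest group mean being 2.34 times its lowest. Under IL-33 it was at 300.6, 438.1 and 429.6 scaled CPM in stage I, 314.5, 346.7 and 390.4 in stage II, 401.9, 411.8 and 452.0 in stage III, and 605.3, 766.2 and 721.7 in stage IV. In steady state it was at 312.6, 324.5 and 256.1 in stage I, 345.5, 453.1 and 314.0 in stage II, 700.6, 769.7 and 501.7 in stage III, and 443.5, 333.4 and 203.0 in stage IV. Stage IV was the highest stage under IL-33, and in steady state stage III was. The conditions did not overlap in stage III, where IL-33 was lower, or in stage IV, where IL-33 was higher.

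Ptafr, which encodes the receptor of platelet-activating factor, started low and was highest in stage IV in both conditions. Under IL-33 it was at 2.30, 5.24 and 3.39 scaled CPM in stage I, 9.34, 4.47 and 11.0 in stage II, 14.04, 11.2 and 13.2 in stage III, and 50.5, 57.8 and 76.4 in stage IV. In steady state it was at 2.38, 1.88 and 7.79 in stage I, 19.9, 3.56 and 15.2 in stage II, 28.4, 49.5 and 55.8 in stage III, and 82.7, 80.8 and 145.5 in stage IV. Over the whole course it rose 16.9-fold under IL-33 (log2 4.08, SE 0.58, edgeR adjusted p = 4.73e-06) and 25.3-fold in steady state (log2 4.66, SE 0.59, edgeR adjusted p = 1.37e-06).

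Cxcr4, the retention receptor, did not decline as the cells matured. In IL-33 libraries it was at 45.8, 48.6 and 39.2 scaled CPM in stage I, 70.1, 65.6 and 73.1 in stage II, 104.0, 79.6 and 93.2 in stage III, and 137.4, 80.2 and 108.0 in stage IV. In steady state libraries it was at 46.9, 54.1 and 43.1 in stage I, 85.1, 72.2 and 96.1 in stage II, 213.4, 240.3 and 160.9 in stage III, and 132.5, 216.9 and 258.7 in stage IV. In stage III every IL-33 library lay below every steady state library, and in stage IV the highest IL-33 library overlapped the lowest steady state one. From stage I to IV it rose 2.44-fold under IL-33 (log2 1.29, SE 0.24, edgeR adjusted p = 0.000139) and 4.22-fold in steady state (log2 2.08, SE 0.25, edgeR adjusted p = 5.42e-07).

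S1pr4, a sphingosine 1-phosphate receptor found mainly on blood cells, was at 42.5, 46.3 and 31.6 scaled CPM in stage I of IL-33 libraries, 45.7, 37.3 and 30.4 in stage II, 47.4, 42.2 and 42.4 in stage III, and 81.4, 86.8 and 72.8 in stage IV. In steady state libraries it was at 38.2, 22.7 and 17.2 in stage I, 48.8, 34.5 and 14.4 in stage II, 72.6, 64.8 and 19.2 in stage III, and 87.2, 57.0 and 34.0 in stage IV. Within each steady state stage library 3 was the lowest of the 3, and every neighbouring pair in the order of its 8 group means overlapped. It passed the threshold in 1 of the 16 comparisons, stage IV against I in steady state (log2 1.19, SE 0.43, edgeR adjusted p = 0.0294). That call was lost without stage IV library 1 (adjusted p = 0.174), stage I library 2 (0.092) or stage I library 3 (0.12), and with library totals as scaling (0.131).

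Ccr2, the receptor of CCL2 and CCL7, differed most between conditions in stage II. Under IL-33 it was at 13.9, 2.53 and 10.2 scaled CPM in stage I, 19.2, 9.01 and 23.6 in stage II, 33.7, 20.3 and 18.1 in stage III, and 54.2, 38.2 and 54.3 in stage IV. In steady state it was at 14.8, 31.1 and 29.4 in stage I, 71.4, 174.2 and 241.7 in stage II, 75.3, 72.9 and 51.9 in stage III, and 22.2, 52.1 and 100.4 in stage IV. The IL-33 group means ran upward from stage I to IV, while the steady state maximum was in stage II. In stages I, II and III every IL-33 library lay below every steady state library.

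Cxcr2, the receptor of the neutrophil-attracting CXC chemokines, and the formyl peptide receptors Fpr1 and Fpr2, which sense bacterial peptides, had few reads. Under IL-33, Cxcr2 was at 5.00, 0.873 and 1.10 scaled CPM in stage I, 4.63, 0.513 and 0.823 in stage II, 2.14, 0.603 and 0.241 in stage III, and 8.31, 6.97 and 4.55 in stage IV. In steady state it was at 11.3, 2.05 and 3.37 in stage I, 44.2, 7.53 and 6.69 in stage II, 42.0, 24.9 and 3.61 in stage III, and 8.42, 0 and 1.37 in stage IV. The conditions did not overlap in stages II and III, where IL-33 was lower. Fpr1 ranged from 0 to 4.44 scaled CPM over the 12 IL-33 libraries and from 0 to 18.8 over the 12 steady state libraries, and Fpr2 from 0 to 6.47 and from 0 to 47.6 in the same order. Fpr1 had no read in 5 of the 24 libraries, Fpr2 in 3 and Cxcr2 in 1, and a library with no read allows a level of up to 0.201 to 0.305 scaled CPM (3 reads, counting error only). Fpr1 and Fpr2 passed the threshold in none of the 16 comparisons with edgeR at an adjusted p under 0.05. Fpr1 had an unadjusted p under 0.05 in 1 of them and Fpr2 in 2, and both were lower under IL-33 in stage III with DESeq2 and with limma-voom.

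**Figure D1:**
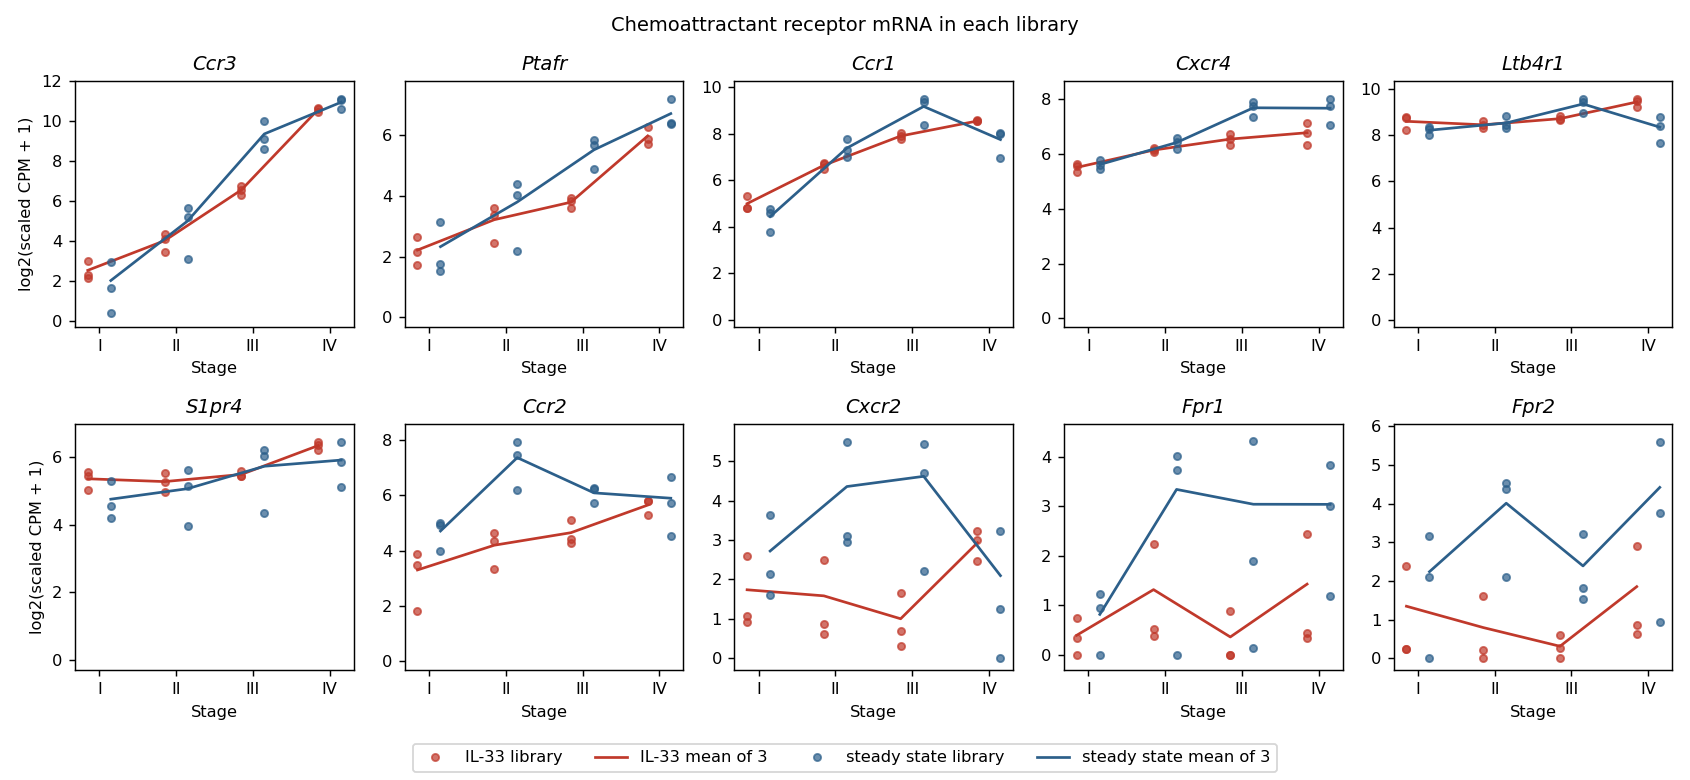
Levels of the 10 receptors in each of the 24 libraries, as log2(scaled CPM + 1) on the vertical axis against stage I to IV on the horizontal axis, with IL-33 libraries in red, steady state libraries in blue and lines through the means of 3 libraries. Ccr3 spans 0.298 to 2243 scaled CPM, while Ltb4r1 stays between 203.0 and 769.7, and Cxcr2, Fpr1 and Fpr2 lie close to 0 in most IL-33 libraries.

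Compared per kb of exon, so that genes of different length can be set side by side, Ltb4r1 made up most of the receptor RNA in stage I, and Ccr3 held the largest share in steady state stage IV. Under IL-33 the share of Ltb4r1 in the summed scaled CPM per kb of the 10 genes was 82.3% ± 5.30 in stage I, 71.2% ± 2.30 in stage II, 61.5% ± 3.27 in stage III and 40.7% ± 2.603 in stage IV. In steady state it was 79.1% ± 2.49, 59.3% ± 9.62, 45.6% ± 4.03 and 20.6% ± 4.92 in the same stages (SD, n = 3 each). Ccr3 held 5.76% ± 0.67 in stage III and 38.4% ± 1.02 in stage IV under IL-33, against 18.6% ± 4.48 and 54.4% ± 2.44 in steady state. Ccr1 was at its largest share in stage III, 17.1% ± 0.94 under IL-33 and 19.1% ± 2.42 in steady state. The 10 genes together summed to 526, 602, 929 and 2927 scaled CPM from stage I to IV under IL-33 and to 435, 904, 2300 and 2986 in steady state. These shares are a description and were not tested.

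**Figure D2:**
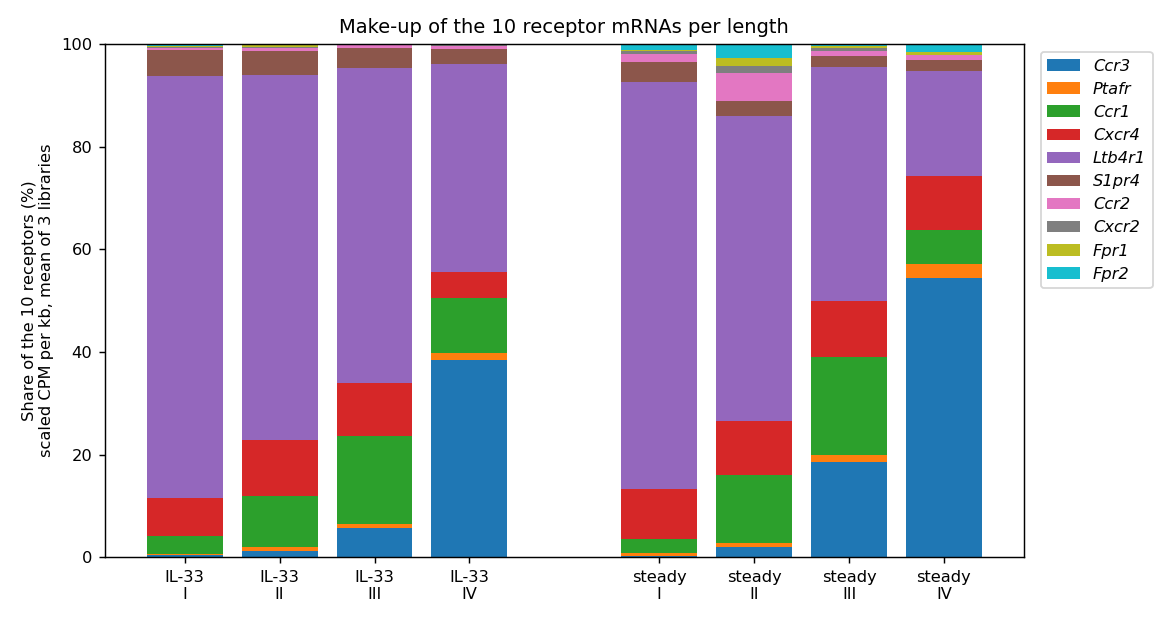
Share of each receptor in the summed scaled CPM per kb of the 10 genes (vertical axis, %), as the mean of 3 libraries in each stage and condition (horizontal axis). In stage IV Ltb4r1 holds 40.7% and Ccr3 38.4% under IL-33, and in steady state Ltb4r1 holds 20.6% and Ccr3 54.4%.

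The step from stage I to II asked which receptors come on first. Under IL-33 Ccr1 passed and rose 3.21-fold (log2 1.68, SE 0.31, edgeR adjusted p = 0.0302), among 12 genes called of 12743 tested, which is 0.0942% in either direction and 0.0785% higher. In steady state 4 of the 10 receptors rose, against 3.76% of all genes tested that rose and 5.09% called in either direction. Ccr1 rose 8.04-fold (edgeR adjusted p = 4.65e-06), Ccr3 9.94-fold (log2 3.31, SE 0.66, 0.00505), Ccr2 6.47-fold (log2 2.69, SE 0.56, 0.00584) and Cxcr4 1.76-fold (log2 0.82, SE 0.24, 0.0493). The median of the 10 log2 changes was 0.80 under IL-33, with 0.02 over all genes, and 1.91 in steady state, with -0.01 over all genes. The difference between the 2 conditions in this step passed edgeR's threshold for none of the 10 and for no gene of the whole table (0%), with 2 receptors at an unadjusted p under 0.05 and none with DESeq2 or limma-voom. The Ccr1 call under IL-33 was lost without any 1 of 7 libraries, namely IL-33 stage I library 2 (adjusted p = 0.24) or 3 (0.257), IL-33 stage II library 1 (0.0675), 2 (0.17) or 3 (0.188), IL-33 stage III library 1 (0.0504) and steady state stage IV library 2 (0.0553). In steady state, a fit of the 6 libraries alone kept Ccr1 but neither Ccr3 (adjusted p = 0.201) nor Ccr2 (0.0687), and with the replicate number as a block Ptafr was called too. The Cxcr4 call was lost with any 1 of 18 of the 24 libraries left out (adjusted p up to 0.161). It was also lost with library totals as scaling (0.14), no filter on low counts (0.0732), limma-voom (0.184), a fit of the 6 libraries alone (0.175) and no steady state libraries numbered 3 (0.169).

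The step from stage II to III was tested in the same way, and 7 of the 10 receptors were higher and Ccr2, Fpr1 and Fpr2 lower in steady state by the fitted values, called or not, with a median log2 change of 0.75. Under IL-33 none of the 10 receptors passed with edgeR, where 0.196% of all genes did, and 2 had an unadjusted p under 0.05. These were Ccr3 (adjusted p = 0.0966 in edgeR, log2 2.62, SE 0.61) and Ccr1 (log2 1.27, SE 0.30, edgeR adjusted p = 0.0969), which both passed with DESeq2 and with limma-voom, and with the replicate number as a block Ccr3 passed, 1 call. In steady state 5 of the 10 rose, against 17.1% of all genes that rose and 34.5% called in either direction. Ccr3 rose 21.3-fold (log2 4.41, SE 0.66, edgeR adjusted p = 3.22e-05), Ccr1 3.48-fold (log2 1.80, SE 0.31, 9.79e-05), Ptafr 3.46-fold (log2 1.79, SE 0.53, 0.0109), Cxcr4 2.42-fold (log2 1.28, SE 0.24, 0.000282) and Ltb4r1 1.77-fold (log2 0.83, SE 0.24, 0.00988). Ccr2 stood 2.44-fold lower in stage III than in stage II without passing (edgeR adjusted p = 0.0636). The difference between conditions passed for none of the 10 with edgeR (6.77% of all genes), with 3 at an unadjusted p under 0.05, none with DESeq2 and 1 with limma-voom. Without the 4 steady state libraries numbered 3 it passed for 3 receptors, Ccr1, Ccr3 and Cxcr4, all with the smaller change under IL-33. The share of all genes that passed in that smaller fit is not given here, so the 3 have no baseline. The Ltb4r1 call was lost without steady state stage III library 2 and the Ptafr call without steady state stage II library 2, both at an adjusted p of 0.0516, and both were also lost in a fit of the 6 libraries alone (0.0833). The Ltb4r1 call was lost with library totals as scaling as well (0.137).

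From stage III to IV the changes called ran upward under IL-33 and downward in steady state. Under IL-33 3 receptors rose, against 13.1% of all genes that rose and 29.1% called either way, which were Ccr3 16.6-fold (log2 4.05, SE 0.64, edgeR adjusted p = 7.38e-05), Ptafr (log2 2.26, SE 0.53, 0.00233) and Ltb4r1 1.65-fold (log2 0.73, SE 0.24, 0.0245). In steady state 2 fell, against 5.71% of all genes that fell and 9.3% called either way, which were Ltb4r1 2.01-fold (log2 -1.01, SE 0.24, edgeR adjusted p = 0.00898) and Ccr1 2.69-fold (log2 -1.43, SE 0.30, 0.00381). Ccr3 stood 3.01-fold higher in steady state stage IV than in stage III but missed the threshold (edgeR adjusted p = 0.091), and Cxcr4 was level (log2 -0.02, 95% interval -0.51 to 0.47). With the replicate number as a block, 4 receptors were called in steady state, Ccr3 higher and Ccr1, Cxcr2 and Ltb4r1 lower. In a fit of the 6 steady state libraries alone, Ccr1 (adjusted p = 0.0832) and Ltb4r1 (0.148) were not called. The Ltb4r1 fall was lost without steady state stage IV library 2 (0.0568) or 3 (0.053), and its rise under IL-33 without IL-33 stage III library 1 (0.081) or 2 (0.0796) or stage IV library 2 (0.0855) or 3 (0.0695), as well as with library totals as scaling (0.164).

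The test of the difference itself bore on 4 receptors in this last step, each with the change more upward under IL-33 than in steady state, where 18.8% of all genes were called and 8.5% of all genes had the greater IL-33 change. Ltb4r1 differed by 1.73 (SE 0.34, edgeR adjusted p = 0.000817), Ccr1 by 2.08 (SE 0.43, 0.00128), Cxcr2 by 5.56 (SE 1.76, 0.0287) and Ccr3 by 2.46 (SE 0.82, 0.0394), all on the log2 scale. For Ltb4r1 and Ccr1 the change was upward under IL-33 and downward in steady state. For Ccr3 it was upward in both. The calls of Ltb4r1 and Ccr1 held without any single library, whereas that of Ccr3 was lost with any 1 of 13 libraries left out (adjusted p up to 0.111), with library totals as scaling (0.0807) and with no filter on low counts (0.0892). The call of Cxcr2 was lost without steady state stage III library 1 (0.0698), steady state stage IV library 2 (0.0515) or 3 (0.0649), or IL-33 stage III library 2 (0.0792) or 3 (0.0782), and with no filter on low counts (0.0534).

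**Figure D3:**
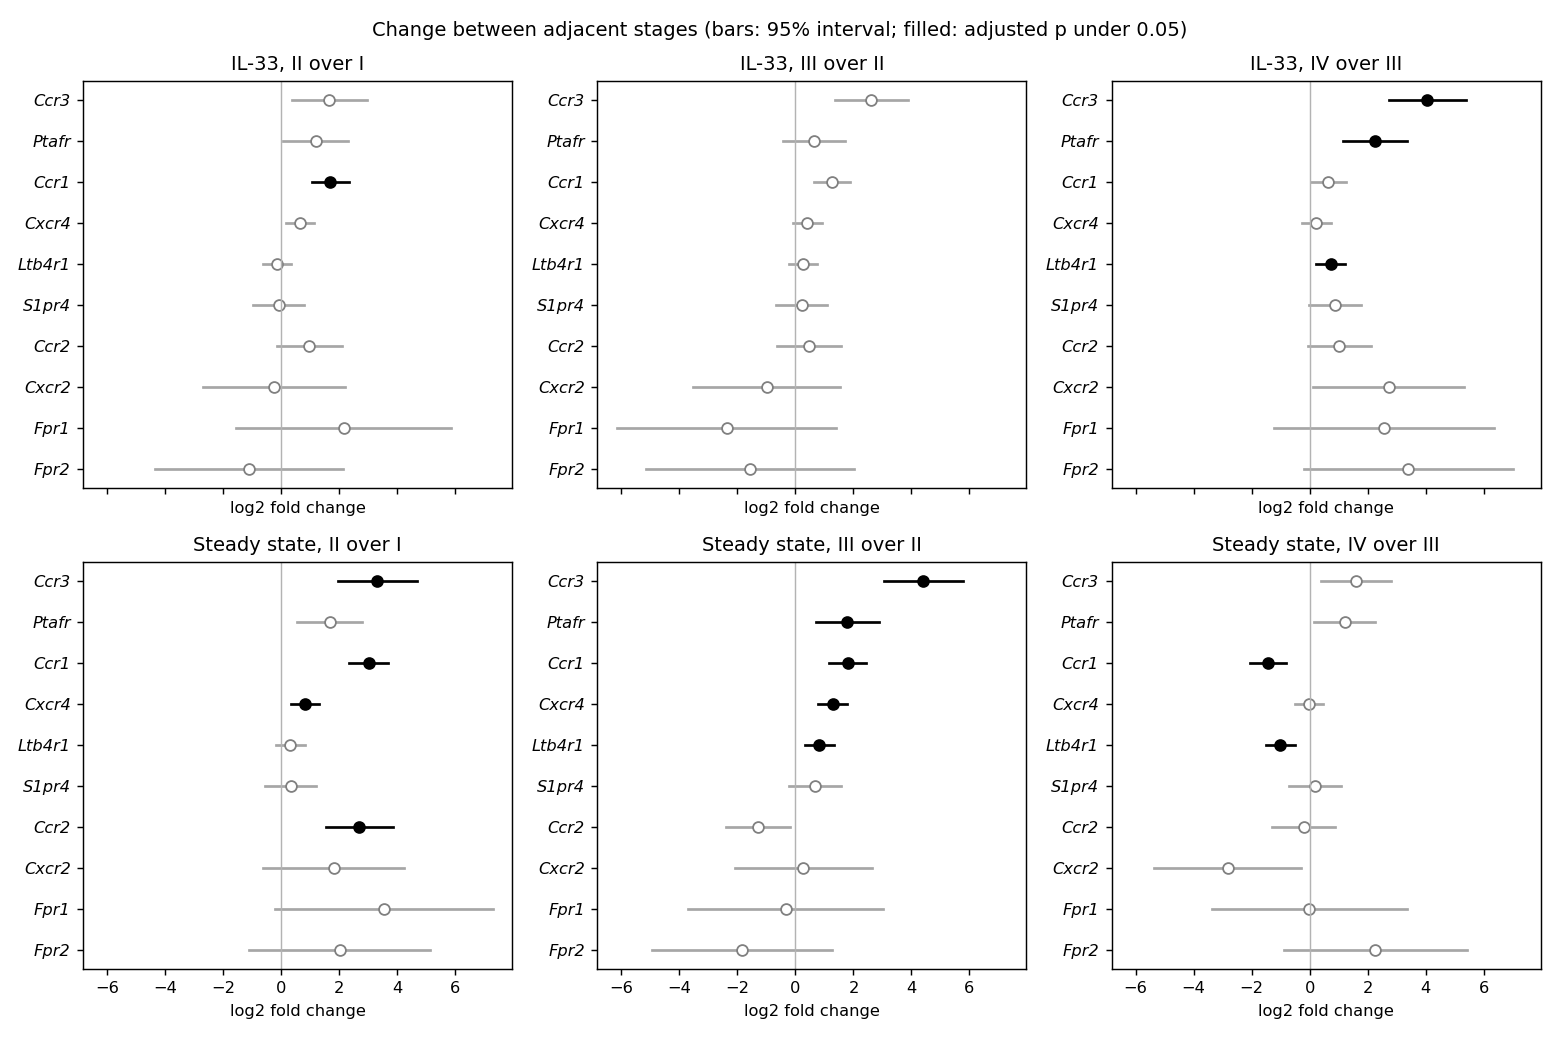
Log2 fold change of each receptor between adjacent stages (horizontal axis, later over earlier stage) with 95% intervals, under IL-33 in the upper row and in steady state in the lower row, filled where the edgeR adjusted p was under 0.05. Ccr3 and Ptafr are called in the last step under IL-33 and in the middle step in steady state, where Ccr3 is called in the first step too. The intervals of Cxcr2, Fpr1 and Fpr2 are wide.

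Over the whole course, stage IV against stage I, 6 receptors rose under IL-33, against 21.1% of all genes that rose and 43.9% called either way. Besides Ccr3, Ptafr and Cxcr4 these were Ccr1 12.1-fold (log2 3.60, SE 0.33, edgeR adjusted p = 1.24e-08), Ccr2 5.50-fold (log2 2.46, SE 0.56, 0.000951) and Ltb4r1 1.79-fold (log2 0.84, SE 0.24, 0.00618). In steady state 5 rose, against 21.1% of all genes that rose and 43.7% called either way, with Ccr1 10.4-fold higher (log2 3.37, SE 0.33, edgeR adjusted p = 3.43e-08) and S1pr4 2.29-fold higher beside Ccr3, Ptafr and Cxcr4. With the replicate number as a block, Ccr2 and Fpr2 were called higher as well. Ltb4r1 stood 1.10-fold higher in steady state stage IV than in stage I (edgeR adjusted p = 0.68). The difference of the whole course between conditions passed for none of the 10 with edgeR, DESeq2 or limma-voom (3.46% of all genes with edgeR), with 2 at an unadjusted p under 0.05. The call of Ltb4r1 under IL-33 was lost with library totals as scaling (adjusted p = 0.0647).

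IL-33 was then set against steady state within each stage. In stage I none of the 10 receptors passed with edgeR (4.33% of all genes did), 1 had an unadjusted p under 0.05, and DESeq2 and limma-voom each called 1, Ccr2, lower under IL-33. In stage II Ccr2 passed, 9.40-fold lower under IL-33 (log2 -3.23, SE 0.57, edgeR adjusted p = 0.00112), where 8.08% of all genes were called, 3.96% lower. Ccr2 kept its call in stage II under all alternatives, including without any single library.

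Stage III held the widest difference, with 7 of the 10 receptors lower under IL-33, against 14.9% of all genes lower and 33.4% called either way. The median of the 10 log2 differences was -1.64, with 0 over all genes. Ccr3 averaged 93.1 ± 13.7 scaled CPM under IL-33 and 660.2 ± 327 in steady state (SD, n = 3 each), 7.09-fold lower (log2 -2.83, SE 0.61, edgeR adjusted p = 0.00125). Ptafr averaged 12.8 ± 1.47 and 44.6 ± 14.3 (3.47-fold lower, log2 -1.80, SE 0.52, 0.0106), and Ccr1 239 ± 20.2 and 579 ± 212 (2.42-fold lower, log2 -1.28, SE 0.30, 0.00232), in the same order. Cxcr4 averaged 92.3 ± 12.2 under IL-33 and 205 ± 40.4 in steady state, 2.22-fold lower (log2 -1.15, SE 0.24, edgeR adjusted p = 0.000755). The others were Cxcr2 (log2 -4.56, SE 1.34, 0.0114), Ccr2 (log2 -1.47, SE 0.54, 0.0375) and Ltb4r1 (log2 -0.64, SE 0.24, 0.0417). Fpr1 (edgeR adjusted p = 0.0695), Fpr2 (0.0776) and S1pr4 (0.691) did not pass. Ccr3, Ptafr, Ccr1 and Cxcr4 kept their calls without any single library.

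The weaker calls of stage III rested on more of the libraries. The Ltb4r1 call was lost with any 1 of 12 of the 24 libraries left out (adjusted p up to 0.16), with library totals as scaling (0.268) and with no filter on low counts (0.0608). The Ccr2 call was lost without steady state stage III library 1 (0.0845) or 2 (0.0835) or IL-33 stage III library 2 (0.126) or 3 (0.128), with library totals as scaling (0.0958) and with no filter on low counts (0.0657), and the Cxcr2 call without IL-33 stage III library 2 (0.0588) or 3 (0.0562).

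In stage IV the conditions differed in 2 receptors and in opposite directions, where 7.54% of all genes were higher under IL-33, 4.72% lower and 12.3% called either way. Ltb4r1 averaged 698 ± 83.1 scaled CPM under IL-33 and 327 ± 120 in steady state (SD, n = 3 each), 2.14-fold higher (log2 1.09, SE 0.24, edgeR adjusted p = 0.00363). Cxcr4 averaged 109 ± 28.6 and 203 ± 64.3 in the same order, 1.87-fold lower (log2 -0.90, SE 0.24, edgeR adjusted p = 0.0144), and its call was lost without steady state stage IV library 3 (0.101) or IL-33 stage IV library 2 (0.111) and in a fit of the 6 libraries alone (0.0795). Ccr3 no longer stood far apart, at 1544 ± 128 under IL-33 and 1991 ± 365 in steady state (log2 -0.37, 95% interval -1.54 to 0.81, edgeR adjusted p = 0.733). Ptafr averaged 61.6 ± 13.3 and 103 ± 36.8 in the same order (log2 -0.74, 95% interval -1.79 to 0.31) and Ccr1 375 ± 7.63 and 215 ± 78.5 (log2 0.80, edgeR adjusted p = 0.0826).

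**Figure D4:**
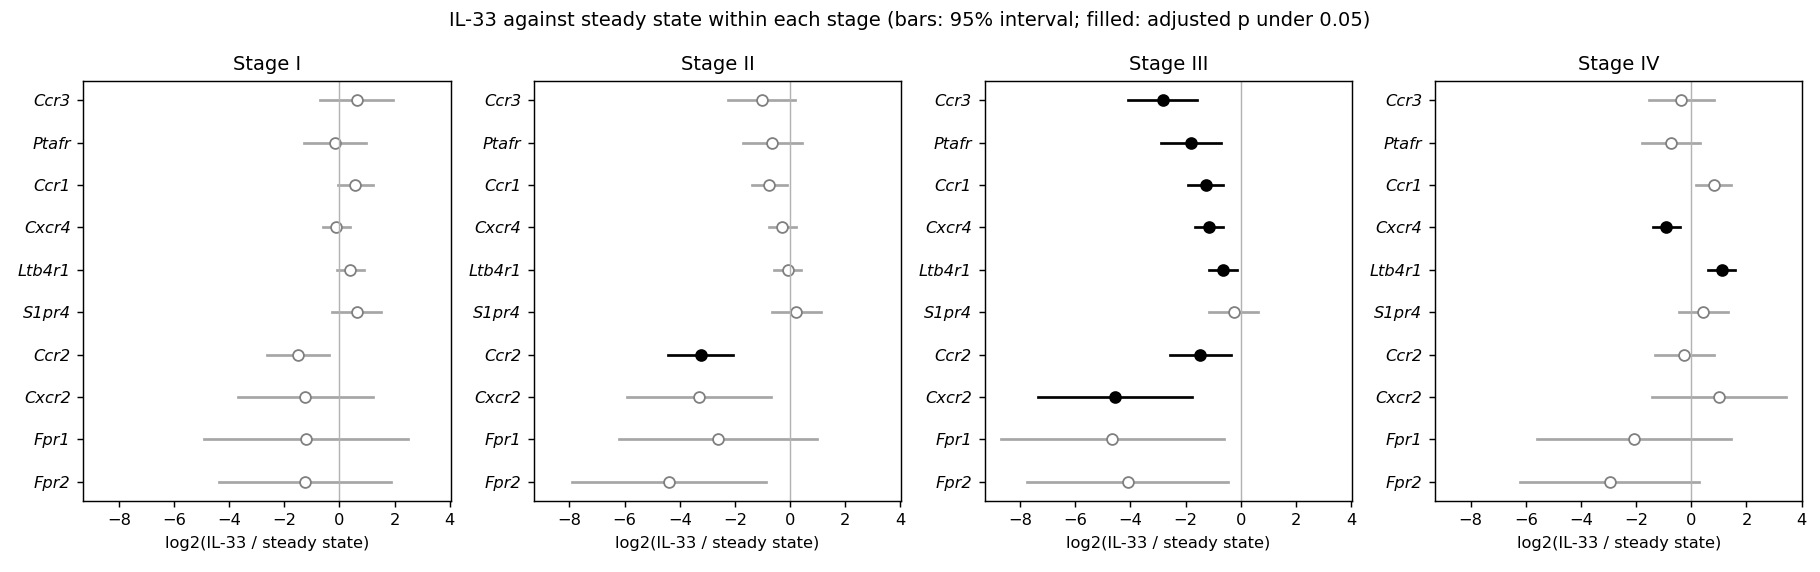
Log2 ratio of IL-33 to steady state for each receptor in stages I to IV (horizontal axis) with 95% intervals, filled where the edgeR adjusted p was under 0.05. In stage III 7 receptors are called and all lie below 0, and in stage IV Ltb4r1 lies above 0 and Cxcr4 below it.

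Markers of other cells were read beside the receptors that neutrophils and monocytes carry. The 15 neutrophil markers other than Cxcr2 summed to 4831, 3000, 4040 and 8985 scaled CPM in stages I to IV under IL-33 and to 8397, 25913, 23359 and 21263 in steady state. Their libraries ran from 3287 to 4688 in IL-33 stage III and from 20849 to 25218 in steady state stage III, and 14 of the 16 markers, Cxcr2 included, were called lower there under IL-33, where 14.9% of all genes were lower. The neutrophil markers did not all move with their sum. From stage II to III in steady state Retnlg (393 to 5455) and Cebpe were called higher and Chil3 (4092 to 542) lower. Of all genes, 34.5% were called either way in that step, 17.1% higher. In IL-33 stage IV Retnlg alone averaged 4597. Retnlg averaged 2171 scaled CPM over all libraries and Ngp 3803, Stfa2l1 had no read in 10 libraries. Cebpe, also in the list, is needed by eosinophils too. The 18 monocyte markers other than Ccr2 summed to 2386, 2951, 3039 and 4159 under IL-33 and to 2814, 6434, 4783 and 3634 in steady state. The highest sum was in steady state stage II, as for Ccr2, but Lyz2 alone held 3548 of it, against 738 in IL-33 stage IV. The sums of the libraries ran from 2698 to 3202 in IL-33 stage II and from 5704 to 7256 in steady state stage II. Single markers differed in where they were highest. F13a1 averaged 408 in steady state stage II and 68.0 in IL-33 stage IV. Csf1r (82.1 and 528) and Ly6c2 (1017 and 2304) ran the other way in the same order. In stage II 10 of the 18 monocyte genes tested, Ccr2 included, were called lower under IL-33, where 3.96% of all genes were lower. In stage III 12 were lower and 2 higher, where 14.9% of all genes were lower and 33.4% called either way. Lyz2 averaged 1364 scaled CPM and Ly6c2 1074, while Mertk had no read in 20 libraries and C1qa in 3. What part such cells play in the values of Cxcr2, Fpr1, Fpr2 and Ccr2 was not tested.

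**Figure D5:**
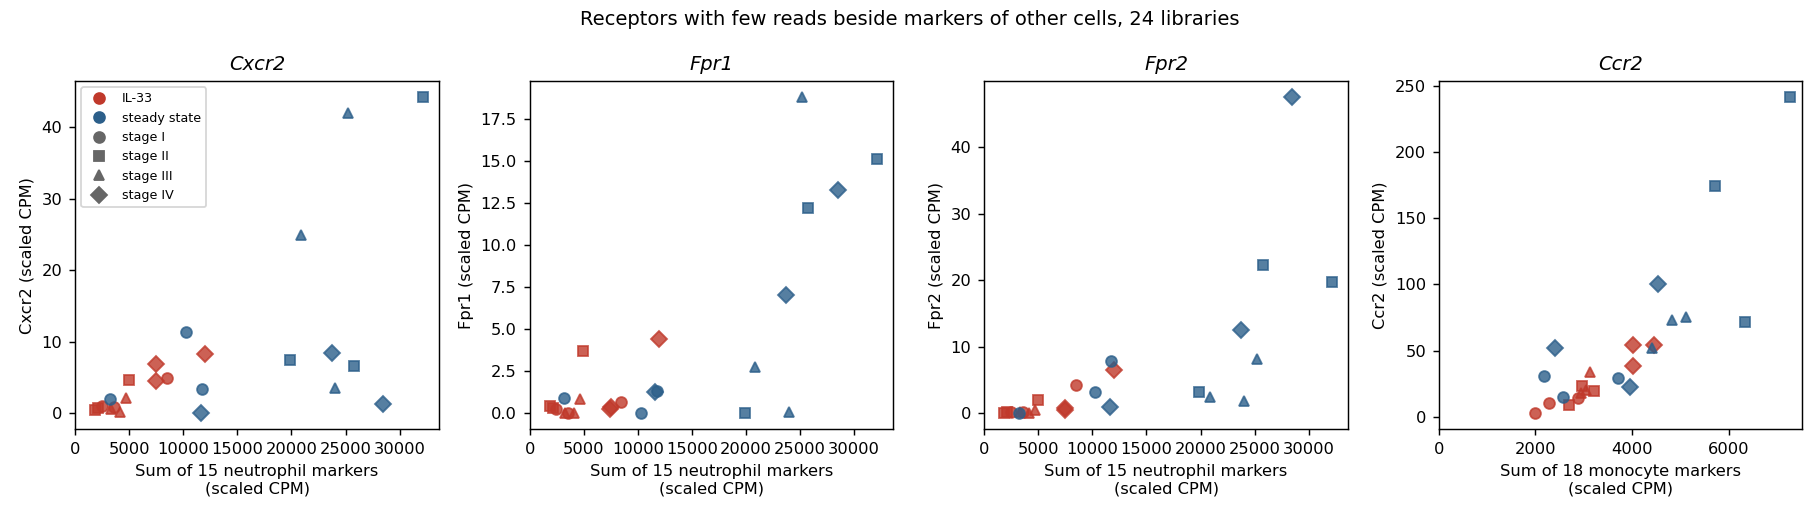
Cxcr2, Fpr1 and Fpr2 (vertical axes, scaled CPM) against the sum of 15 neutrophil markers, and Ccr2 against the sum of 18 monocyte markers (horizontal axes, scaled CPM), in each of the 24 libraries, coloured by condition and shaped by stage. The libraries with the most Ccr2, 241.7 and 174.2 scaled CPM, are both of steady state stage II. Steady state stage II library 1 has the largest neutrophil sum, 32115, and the most Cxcr2, 44.2. Steady state stage IV library 3, with a neutrophil sum of 28499, has Cxcr2 at 1.37, Fpr1 at 13.3 and the most Fpr2, 47.6.

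The basophil and mast cell markers, which include the sort markers Kit and Cd200r3, summed to 2525, 2667, 3555 and 3326 scaled CPM from stage I to IV under IL-33 and to 3029, 3112, 1184 and 998 in steady state. Hdc (802 on average over all libraries) and Cpa3 (508) were the most abundant, and Tpsb2 had no read. In stage IV 7 of the 11 tested were called higher under IL-33, where 7.54% of all genes were higher. Prss34 was called lower there (30.45-fold, edgeR adjusted p = 0.0355), where 4.72% of all genes were lower, and in stage II (34.84-fold, 0.0377). The steady state stage IV libraries were split, with Prss34 at 210.9, 0 and 336.4 scaled CPM. Mcpt8 was split in the same way, at 133.9, 0.185 and 255.9, and was not called in stage IV (edgeR adjusted p = 0.254). Fcer1a was called lower under IL-33 in stages I and II and higher in stages III and IV. The lymphoid markers summed to 957, 569, 355 and 236 under IL-33 and to 1005, 678, 115 and 78.2 in steady state. Nkg7 (456.9) and Cd79b (29.8) were the most abundant, with Cd8a at 0 in all 24 libraries and Cd3e in 22. In stage I Nkg7 made up most of the sum, at 923 under IL-33 and 968 in steady state. From stage I to IV Nkg7 was called lower in both conditions and Cd79b in steady state, while Cd79a and Cd3d were called higher in both. Of all genes, 21.1% rose in each condition, and 43.9% under IL-33 and 43.7% in steady state were called either way. The part of either in the receptor values was not tested.

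Other receptors of the same kind were read as a list of 35, of which 20 had enough reads. Under IL-33 4 of them rose from stage III to IV, Gpr183, Ptgdr2, C3ar1 and C5ar1, where 13.1% of all genes rose and 29.1% were called either way. In steady state C3ar1 and Ptgdr2 rose in that step, where 9.3% of all genes were called either way, 5.71% of all genes being lower. C3ar1, the receptor of the complement fragment C3a, was higher under IL-33 in stages I to III. It averaged 11.6, 27.1, 67.5 and 347 scaled CPM from stage I to IV under IL-33 and 0.114, 1.95, 7.81 and 127 in steady state, with 4 reads in all in steady state stage I, and was 8.64-fold higher under IL-33 in stage III (log2 3.11, SE 0.77, edgeR adjusted p = 0.00375). Gpr183, an oxysterol receptor that guides immune cells, ran in opposite directions, at 39.6, 44.2, 67.1 and 140 under IL-33 and 167, 128, 47.0 and 21.3 in steady state. It was lower under IL-33 in stage I (log2 -2.08, edgeR adjusted p = 0.00317) and higher in stage IV (log2 2.71, SE 0.39, edgeR adjusted p = 5.23e-05). C5ar1, the receptor of C5a, rose 7.68-fold from stage III to IV under IL-33 (edgeR adjusted p = 0.00956). Cysltr1, a receptor of cysteinyl leukotrienes, had no read in steady state stage I and 152 in stage II, at least 58.9-fold higher against a floor of 3 reads over the group. Cx3cr1, the fractalkine receptor and a monocyte marker, was lower under IL-33 in stages II, III and IV, in stage III at 0.279 ± 0.427 and 7.14 ± 3.09 scaled CPM (edgeR adjusted p = 0.0043).

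Of 33 genes for the signalling and desensitisation of these receptors, 32 were tested. Under IL-33 13 rose from stage III to IV (median log2 0.78), where 13.1% of all genes rose. In steady state 11 rose from stage I to II (median 0.70, 3.76% of all genes), 19 rose and Grk3 fell from II to III (median 0.88, 17.1% of all genes rose), and 4 fell from III to IV (median -0.20, 5.71% of all genes). In stage III 19 of the 32 were lower under IL-33, where 14.9% of all genes were lower and 33.4% called either way, with a median log2 difference of -0.88 beside 0 over all genes. Gnai2, the inhibitory G protein subunit most abundant in leukocytes, averaged 1581 ± 91.3 scaled CPM under IL-33 and 2683 ± 303 in steady state in that stage (log2 -0.76, SE 0.17, edgeR adjusted p = 0.00139). Gng2, a gamma subunit, was 2.68-fold lower there (edgeR adjusted p = 0.000738), Plcb3, a phospholipase C, 3.16-fold (0.000423) and Fgr, a Src family kinase, 7.58-fold (0.000283). Pik3r6, a regulatory subunit of phosphoinositide 3-kinase gamma, was lower under IL-33 in stages II, III and IV, at 20.2 ± 4.42 and 220 ± 33.1 scaled CPM in stage III (log2 -3.45, SE 0.54, edgeR adjusted p = 4.25e-05).

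Of 30 genes for ligands of the receptors and for enzymes that make or remove the lipid ligands, 23 were tested. Under IL-33 9 rose and Lta4h fell from stage III to IV, where 13.1% of all genes rose and 29.1% were called either way, and in the 2 earlier IL-33 steps 1 gene of the 3 lists passed, Ccl6 from II to III. In steady state 3 rose from stage I to II (3.76% of all genes rose), 7 rose and Lpcat1 fell from II to III (17.1% of all genes rose). From III to IV Ccl9 and Pla2g7 rose while Lta4h and Anxa1 fell (9.3% of all genes called either way). Ccl6 and Ccl9, CC chemokines that bind CCR1 in mice, stood at 8306 ± 705 and 1074 ± 360 scaled CPM in IL-33 stage IV and at 7190 ± 1417 and 692 ± 326 in steady state stage IV. Ccl6 was higher under IL-33 in stages I and II and lower in stage III (log2 -0.97, SE 0.26, edgeR adjusted p = 0.00558). For the ligand of Ltb4r1, Alox5ap, which presents arachidonic acid to 5-lipoxygenase, was 2.11-fold lower under IL-33 in stage III (edgeR adjusted p = 0.000116). For the ligand of Ptafr, the synthetic enzyme Lpcat2 was 1.69-fold (0.00649) and the degrading enzyme Pla2g7 11.7-fold lower there (0.000364). Pla2g7 then averaged 1082 ± 121 scaled CPM in IL-33 stage IV and 1760.0 ± 254 in steady state stage IV (edgeR adjusted p = 0.491). Sgpl1, which breaks down sphingosine 1-phosphate, was 2.67-fold lower under IL-33 in stage III (edgeR adjusted p = 0.000464).

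Likeness between genes was read as Pearson's r of log2(mean scaled CPM + 1) over the 8 group means, which share libraries and stages, as a description with no test. Among the 10 receptors Ccr3 and Ptafr were the most alike (r = 0.99), followed by Cxcr4 and Ptafr (0.92) and Ccr3 and Cxcr4 (0.91). Among 8340 genes with a group mean of at least 20 scaled CPM, Ccr3 was most like Lcp2, Ptk2b and Tmem71 (r from 0.997 to 0.999), Ptafr like Prkx and Resf1, and Ccr1 like Pilrb1, Plekha2 and Nhsl2 (r from 0.990 to 0.995). Cxcr4 was most like Clk3, Larp4b and Etv3, Ltb4r1 like Btbd19, Erich1 and Serhl, and S1pr4 like Arf5, Gnb2 and Pip5k1b. Ccr2 was most like Nr4a1, Ndrg1 and Sp3, Fpr2 like Ube2l6, H2-Aa and Map3k8, and Cxcr2 like Mmp8 (0.94), a gene of the neutrophil list, Hexa and Rnf214.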

How the data were processed

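Messenger RNA was measured in 24 libraries of sorted mouse marrow eosinophils, 3 per group, made, per the labels' protocols, with the SMART-Seq v4 kit followed by Nextera XT, which keeps no strand. The deposited files hold whole-number counts of reads per gene, made by the authors with STAR 2.6.1a on mm10 per the submitters' processing notes, which also name DESeq2. How reads were assigned to genes (tool, strand setting, annotation) is not given in the sources used here. Reads in 2 entries that name no gene (no feature, 9.19% to 30.5% per library, and ambiguous, 1.73% to 2.6%) stayed out. Of 24982 symbols 24490 matched GENCODE M21.

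Counts were tested in R 4.3.3 with edgeR 4.0.16, its filter by group (12743 genes kept), TMM scaling and 1 robust quasi-likelihood fit of the 8 groups over 24 libraries, giving 16 contrasts. The difference of a step is the IL-33 change minus the steady state change. Benjamini-Hochberg adjustment ran over the 12743 genes, calls were made at 0.05, and the fit was tested on simulated data. The design text calls the triplicates biological. Replicates differed by more than counting error, so precision rests on the spread between 3 libraries, pooled over groups. Same-numbered libraries deviated together (every correlation over 0.1) from stage I to II (0.12 to 0.3), III to IV (0.11 to 0.22) and I to IV (0.12 to 0.19) in steady state and from I to II (0.15 to 0.24) and II to III (0.13 to 0.24) under IL-33. The labels give numbers only, so this pairing is read from the counts.

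The other settings tried were limma-voom with weighted samples (limma 3.58.1), DESeq2 1.42.0, relative log expression (RLE) or library totals as scaling, no filter, the replicate number as a block, only the groups compared, no steady state libraries numbered 3, and each library left out. The 10 members, the 3 lists of related genes and the marker lists were chosen with earlier results of these data known. Members were named in every comparison they passed. From each list, up to 4 genes with the smallest adjusted p over the stage steps and up to 3 over the condition comparisons were named, with the 3 genes most alike in pattern to each member reaching a group mean of 20 scaled CPM and, per marker list, the 2 most abundant genes and those at 0. Some genes that this rule names are not reported here. Plots used Python 3.11.15 and matplotlib 3.10.9.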

Additional observations from a re-analysis of the deposited data

Results flagged for a closer look

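The change from stage III to IV differed between IL-33 and steady state, by a test of the difference itself, in 4 receptors. On the log2 scale the IL-33 change exceeded the steady state change by 5.56 for Cxcr2 (SE 1.76, edgeR adjusted p = 0.0287), 2.46 for Ccr3 (SE 0.82, edgeR adjusted p = 0.0394), 2.08 for Ccr1 (SE 0.43, edgeR adjusted p = 0.00128) and 1.73 for Ltb4r1 (SE 0.34, edgeR adjusted p = 0.000817). For Cxcr2 the change was 2.73 under IL-33 (edgeR adjusted p = 0.107) and -2.83 in steady state (edgeR adjusted p = 0.153), so that neither passed alone. For Ccr1 it was 0.65 under IL-33 (edgeR adjusted p = 0.107) and -1.43 in steady state (edgeR adjusted p = 0.00381).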

How the results depend on the processing

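Of the 40 receptor results that passed, none reversed under any alternative, 23 kept their call under all of them, and 13 lost it without at least 1 library. RLE scaling, DESeq2 and the replicate block kept all 40, limma-voom and leaving out the steady state libraries numbered 3 kept 39, no filter 35, and library totals or a fit of only the groups compared 32 each. Library totals moved the median of all genes by -0.39 to 0.31 on the log2 scale. Counts of receptors called that moved by over 1.5 times are given first, with the main count in brackets. In the steady state step I to II (4), only the groups compared gave 1, and under IL-33 (1) limma-voom gave 3. From II to III under IL-33 (0) DESeq2, limma-voom, only the groups compared and leaving out the steady state libraries numbered 3 gave 2 each, and the replicate block 1. From III to IV in steady state (2) limma-voom and the replicate block gave 4 each and only the groups compared 1, and under IL-33 (3) limma-voom and only the groups compared gave 7 each, and the replicate block and leaving out the steady state libraries numbered 3 gave 5 each. For IL-33 against steady state, stage I (0) had 1 with DESeq2 and with limma-voom, stage II (1) had 2 with DESeq2 and 3 with limma-voom and with the replicate block, and stage IV (2) had 1 with only the groups compared. The difference of the II to III step (0) had 1 with limma-voom and 3 without the steady state libraries numbered 3, and that of the III to IV step (4) had 2 with no filter. Smaller moves included IL-33 against steady state in stage III (7), with 5 by library totals or no filter, which lost Ccr2 and Ltb4r1, 9 by DESeq2, limma-voom or the replicate block, which added Fpr1 and Fpr2, and 8 by only the groups compared or without the steady state libraries numbered 3, and steady state I to IV (5), with 4 by library totals and 7 by the replicate block, which added Ccr2 and Fpr2. Shares of all genes called in these settings are not given here. The moves are therefore not read as particular to the receptors, and their cause was not tested. With each library left out, the count ran from 3 to 5, 4 to 6, 1 to 3 and 4 to 6 for steady state I to II, II to III, III to IV and I to IV, from 0 to 1, 0 to 1, 2 to 3 and 6 to 7 for the same under IL-33, from 0 to 0, 1 to 1, 4 to 8 and 1 to 3 for IL-33 against steady state in stages I to IV, and from 2 to 4 for the difference of the III to IV step, with 0 to 0 for the other differences. Not every same-numbered correlation was over 0.1 from II to III in steady state, from III to IV or I to IV under IL-33, or between conditions (lowest correlations 0.058, 0.046, 0.023 and -0.092). From II to III in steady state and from III to IV under IL-33, each of the 6 libraries still deviated most with its same-numbered partner. From I to IV under IL-33 only 2 of the 6 did. In all of these comparisons the pairing is less sure, and besides the counts above the block changed no call that passed. Low counts limit Cxcr2, Fpr1 and Fpr2, for which 95% intervals of a log2 change spanned several units.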
